A study of Mus musculus with 2 samples.

Results

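Cells make cholesterol and fatty acids from acetyl-CoA, and the enzymes of both pathways are controlled together by the SREBP transcription factors. This account covers 36 mouse genes named for their part in that system: 7 enzymes of the mevalonate steps, 11 enzymes from squalene to cholesterol, 6 genes of SREBP control and sterol transfer, 8 enzymes of fatty acid synthesis and desaturation, and 4 genes of the LXR efflux arm. They were taken by gene symbol from a table of 39017 gene identifiers, all 36 were found, and all 36 were among the 13880 genes called measured, which had at least 20 counts summed over both libraries. The rule names the genes and sets no threshold on their values.

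RNA came from LSK cells (Lin- Sca-1+ c-Kit+), a bone marrow fraction rich in blood stem cells and early progenitors. Wild-type (WT) cells were pooled from 12 mice and miR-146a-/- cells from 6 mice. Both groups were C57BL/6J animals aged 10 to 14 weeks, and both gave 1 library of total RNA depleted of ribosomal RNA. miR-146a-/- animals lack miR-146a, a microRNA that dampens NF-kB signalling, and the labels give no cell-type restriction of the allele. The Mir146 gene had 0 counts in both libraries, so the counts do not check the genotype label. With 1 pool and 1 library per genotype, no difference here has a replicate check, no test between genotypes was possible and no p-value is given.

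SREBP proteins are made as membrane precursors held in the endoplasmic reticulum by SCAP and INSIG. When sterol runs low the SCAP-SREBP complex moves to the Golgi, the precursor is cleaved, and the freed part enters the nucleus and raises transcription of synthesis enzymes. SREBP-2, from Srebf2, acts mainly on sterol enzymes, and SREBP-1, from Srebf1, mainly on fatty acid enzymes. LXR receptors respond to oxidised sterols instead and raise transporters that carry cholesterol out of the cell.

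Gene positions are those of GENCODE M21 on GRCm38 (mm10). Values are given in 3 forms. A count is the number of reads the authors assigned to a gene. A level is the CPM value (the count as a share of library size, scaled between libraries by TMM, the trimmed mean of M-values) divided by the exon length in kb, and is written per kb. A log2 ratio is miR-146a-/- over WT on TMM-scaled counts, so that 1 is a doubling, and the range in brackets after it is the exact 95% Clopper-Pearson interval for counting error alone. Calls of higher or lower required this whole interval to lie beyond 1.5-fold, a log2 value of 0.585. The labels name no molecular identifiers, and the intervals leave out amplification, the animals and the sort.

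The libraries held 35069136 counts (WT) and 22231389 counts (miR-146a-/-), and protein-coding genes took 81.4% and 51.5% of them. A single ribosomal-repeat gene, Gm42418, took 2.13% of WT and 27.2% of miR-146a-/- counts. The median log2 ratio of all measured genes was -0.01 with TMM and -0.83 with total counts. Every ratio below is on the TMM scale, and 11 of the 12 positive member ratios change sign under total counts, Abca1 being the exception. Xist, the RNA of the inactive X chromosome in females, had 10988 and 49105 counts, a log2 ratio of 3.64. The labels give no sex, and sex make-up and genotype of the pools cannot be told apart. All 8 LSK markers were measured, with Flt3 and Cd34 the most abundant per kb in WT (75.6 and 75.5 per kb) and Hlf and Kit in miR-146a-/- (95.2 and 81.6 per kb). Their summed normalised CPM were 2246 and 2463, but single markers differed. Intervals of the log2 ratio lay above 0 for 5 of the 8 and below 0 for 3 (28.0% and 29.0% of all measured genes). Kit and Hlf were both at 0.38, Flt3 at -0.23 and Cd34 at -0.19.

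On the TMM scale, 1 of the 36 genes was called higher (Abca1), where 5.35% of all measured genes were, and 0 were called lower, where 1.53% were. The median log2 ratio of the 36 was -0.11, with 12 positive and 24 negative, against -0.01 over all measured genes. Intervals lay wholly above 0 for 8 members (28.0% of measured genes), wholly below 0 for 15 (29.0%) and spanned 0 for 13. None of the 26 synthesis enzymes was called in either direction; their median was -0.12 and 19 of 26 were negative. With total counts in place of TMM, 0 members were called higher and 25 lower, where 140 and 7077 measured genes were. Exons of 11 of the 36 genes overlap another annotated gene; besides the overlaps of Fdps, Fdft1 and Tm7sf2 given with those genes, they covered at most 13.2% of exon length (Scap). In bulk RNA, fewer cells of one type and less RNA per cell cannot be told apart.

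**Figure D1:**
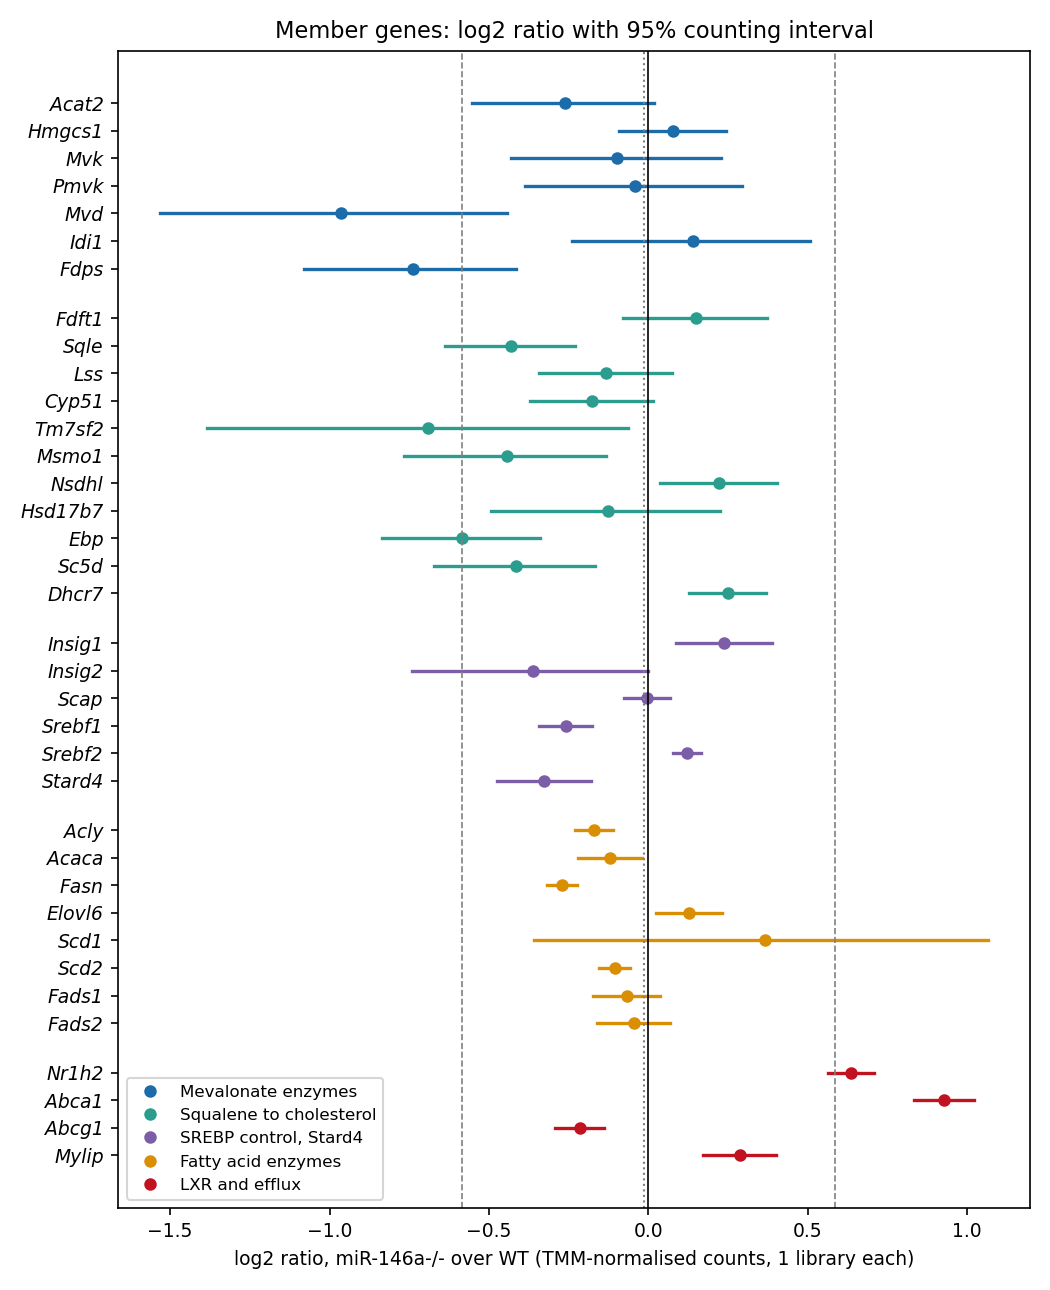
Log2 ratio of miR-146a-/- over WT for each of the 36 genes by role (points), with the 95% counting interval (bars); dashed lines mark 1.5-fold, the dotted line the median of all measured genes (-0.01) and each library is 1 pool. On this TMM scale only the bar of Abca1 lies wholly beyond a dashed line, and under total counts it does not (0.11).

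Promoters were searched for motifs known from sterol genes, and the sequences come before the single genes so that they can be read beside them. RefSeq promoters (build GRCm38.p6, from 250 bases before the start of transcription to 50 after it) were found for 28 of the 36 genes. The letters CCAAT, the core bound by NF-Y, a factor known to work beside SREBP, were sought on both strands, so they also appear as their complement ATTGG. They occurred in 21 of 28 members, against 42.9% of 9735 measured protein-coding genes with a promoter in the table and 37.4% of all 32851 promoters. All 9 squalene-to-cholesterol genes with a promoter held a match in at least 1 promoter (Dhcr7 in 1 of its 3), as did 5 of 6 mevalonate genes, 4 of 5 SREBP control genes, 2 of 5 fatty acid genes and 1 of 3 LXR arm genes, Mylip. The letters TCACNCCAC, a strict form of the sterol regulatory element that SREBP binds, occurred on either strand in 1 of 28 members, Hmgcs1, and in 1.38% of the measured genes. GGGCGG, the GC box bound by Sp1, occurred in 23 of 28 members (82.1%) and 69.0% of measured genes. A match describes letters in a window and is not evidence of binding, and the absence of a match says only that these letters are not there.

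Below are 3 promoters that span this range, with the sterol element and CCAAT or ATTGG in capitals. Hmgcs1 is shown as the member with the sterol element, Msmo1 as a sterol enzyme with several CCAAT matches, and Abca1 as the single gene called higher, which has neither motif. Hmgcs1 lies at chr13:119690101-119690400 (+ strand), Msmo1 at chr8:64733529-64733828 (- strand) and Abca1 at chr4:53159846-53160145 (- strand).
Hmgcs1: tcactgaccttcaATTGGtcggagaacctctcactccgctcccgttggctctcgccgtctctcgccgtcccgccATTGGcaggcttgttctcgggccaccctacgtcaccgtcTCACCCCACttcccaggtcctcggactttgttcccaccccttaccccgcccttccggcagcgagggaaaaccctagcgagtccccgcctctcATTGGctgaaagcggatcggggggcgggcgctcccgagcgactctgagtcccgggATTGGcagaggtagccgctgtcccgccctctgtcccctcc
Msmo1: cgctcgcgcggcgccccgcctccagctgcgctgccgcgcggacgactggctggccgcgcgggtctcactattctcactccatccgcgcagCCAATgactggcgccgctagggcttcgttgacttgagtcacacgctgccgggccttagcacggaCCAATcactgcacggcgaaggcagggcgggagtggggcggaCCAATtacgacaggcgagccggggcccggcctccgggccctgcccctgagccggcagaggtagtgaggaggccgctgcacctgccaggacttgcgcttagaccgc
Abca1: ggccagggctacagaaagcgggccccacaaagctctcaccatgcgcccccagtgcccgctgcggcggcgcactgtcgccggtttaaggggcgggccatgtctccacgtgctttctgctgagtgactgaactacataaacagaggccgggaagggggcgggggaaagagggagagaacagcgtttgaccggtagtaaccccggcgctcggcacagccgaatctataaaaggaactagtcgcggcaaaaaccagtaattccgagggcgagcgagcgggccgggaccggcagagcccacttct
In Hmgcs1 the sterol element began at position -137 from the start and was flanked by 4 CCAAT matches, all in the complement form. Msmo1 held 3 CCAAT matches, and Abca1 held 2 GC boxes alone.

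**Figure D2:**
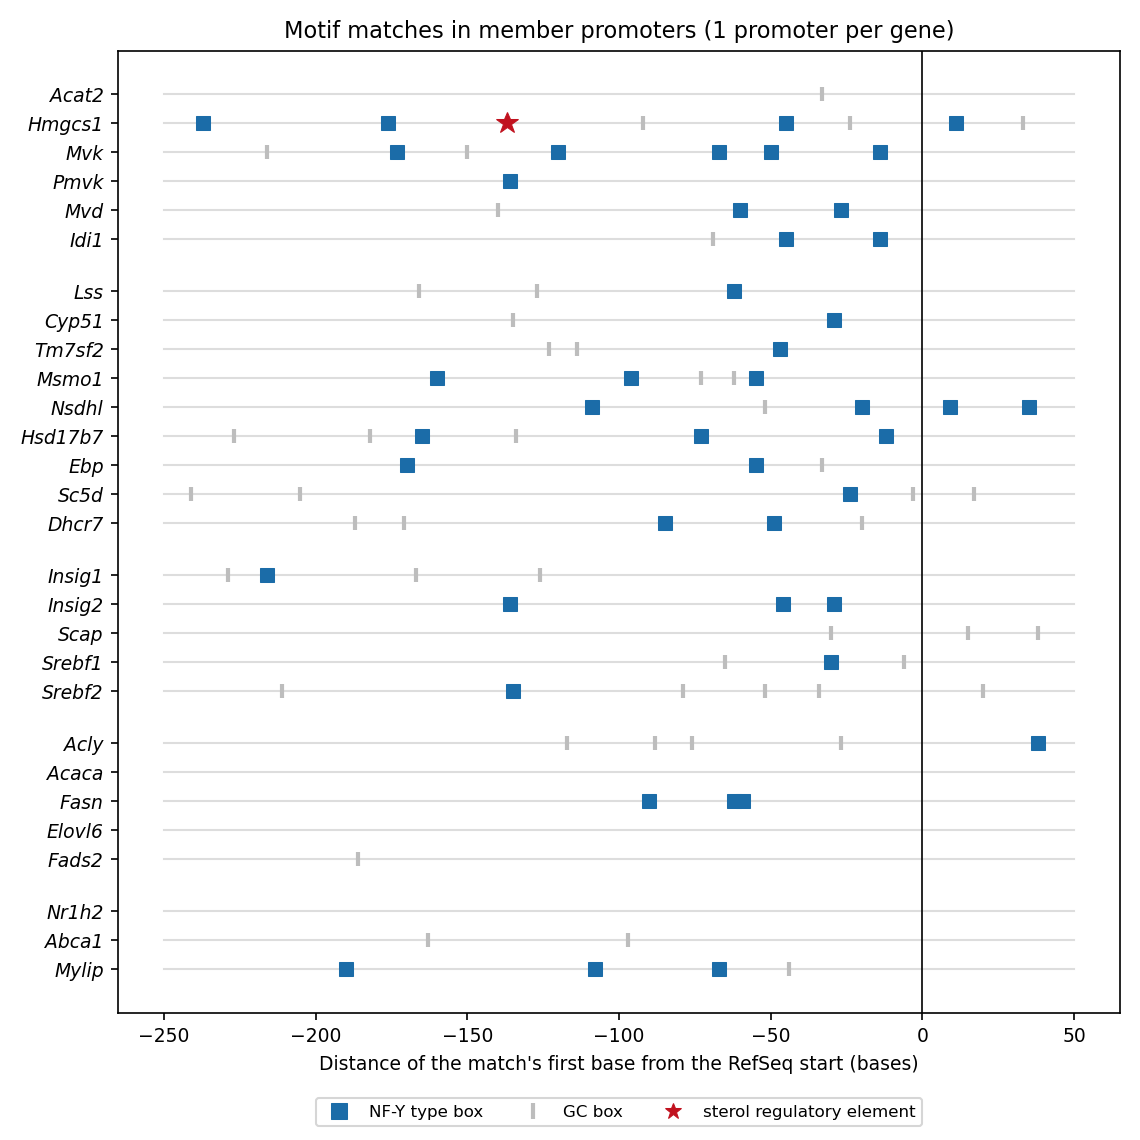
Positions of motif matches in 1 RefSeq promoter for each of 28 members (where a gene has several, that with the most CCAAT matches); the x axis is the distance in bases from the start of transcription, blue squares are CCAAT matches on either strand (drawn as NF-Y type boxes), grey ticks GC boxes and the red star the sterol regulatory element. All 9 genes from squalene to cholesterol carry at least 1 blue square, and the single star is in Hmgcs1.

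Log2 ratios were compared with and without the motif. Members with a CCAAT match had a median log2 ratio of -0.13 (21 genes) and members without one -0.0033 (7 genes). The 21 include all 9 squalene-to-cholesterol genes with a promoter and the 7 include Abca1 and Nr1h2, so motif and role cannot be told apart here. Over the 9735 measured protein-coding genes with a promoter the corresponding medians were -0.04 (4173 genes) and -0.03 (5562 genes).

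The deleted microRNA pairs with its targets through its seed, bases 2 to 8, in capitals below. The related miR-146b-5p is shown because it has the same seed.
mmu-miR-146a-5p: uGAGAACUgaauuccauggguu
mmu-miR-146b-5p: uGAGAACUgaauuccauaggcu
The complement of the seed, AGTTCTC, was sought in each gene's longest 3' untranslated region. It occurred in 4 of 36 members (11.1%) and in 1539 of 12249 measured protein-coding genes with such a region (12.6%). The members thus carried it about as often as other genes. The 4 were Hmgcs1, Lss, Fads2 and Stard4. Sites in the first 3 genes, with the seed match in capitals, lie in those regions (build GRCm38) at chr13:119707551-119707572 (+ strand) in Hmgcs1, at chr10:76553795-76553816, chr10:76554875-76554896 and chr10:76554915-76554936 (+ strand) in Lss, and at chr19:10063710-10063731 (- strand) in Fads2.
Hmgcs1: aaattcactagcaAGTTCTCtg
Lss, region base 740: agcatgtaactccAGTTCTCag
Lss, region base 1820: ggtcatgctgtggAGTTCTCcg
Lss, region base 1860: ccccagtttagggAGTTCTCcg
Fads2: aggaccaaggaaaAGTTCTCtc
None of the 4 genes with a site was called higher, where 5.35% of all measured genes were. The log2 ratio was 0.08 in Hmgcs1, -0.13 in Lss, -0.05 in Fads2 and -0.33 in Stard4. Abca1, which was called higher, had no site. Over the 12249 measured protein-coding genes the median was 0.02 with a site and -0.04 without one. Longer regions have more room for a match, and ratios also differed by exon length (medians from -0.17 in the shortest class to 0.17 in the longest). The part of length in these 2 medians was not tested.

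The mevalonate steps turn acetyl-CoA into the isoprenoid building blocks of sterols. The 7 enzymes had low to middling levels, from 1.32 to 4.97 per kb in WT and from 1.13 to 5.25 in miR-146a-/-, where the median measured gene stood at 4.36 and 4.22 per kb. Their median log2 ratio was -0.10, with 2 intervals below 0 and none above.

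Hmgcs1 (chr13:119690379-119708260, + strand), which makes HMG-CoA, was the most abundant of the 7, with 1064 counts in WT (4.97 per kb) and 403 in miR-146a-/- (5.25 per kb). Its log2 ratio was 0.08 (-0.09 to 0.25), near the middle of the distribution. Mvd (chr8:122433601-122443422, - strand), the decarboxylase that yields isopentenyl diphosphate, had 191 counts in WT (2.20 per kb) and 35 in miR-146a-/- (1.13 per kb). At -0.96 (-1.53 to -0.44) Mvd had the lowest ratio of all members, at percentile 2.12 of measured genes, but its interval reached inside 1.5-fold and it was not called. Fdps (chr3:89093588-89101959, - strand), which builds farnesyl diphosphate, had 433 counts (2.21 per kb) and 93 (1.32 per kb), a log2 ratio of -0.74 (-1.08 to -0.41). In the annotation used here 26.7% of the Fdps exon length is shared with Gm43738, a gene on the same strand.

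The other 4 steps had intervals that spanned 0. Acat2, the thiolase at the start of the pathway, was at 3.78 and 3.15 per kb. Mvk, mevalonate kinase, was at 2.49 and 2.32 per kb, and Pmvk, the following kinase, at 3.56 and 3.46 per kb. Idi1, the isomerase, was at 1.32 and 1.45 per kb. Within the pathway, the ratio of Hmgcs1 to Mvd per kb was 2.25 in WT and 4.66 in miR-146a-/-, a difference of log2 ratios of 1.04 (0.49 to 1.64). Such a contrast between genes of the same libraries does not depend on the scaling. Altogether 8 contrasts between genes were computed, chosen after their values were seen.

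From squalene to cholesterol, 11 enzymes close, demethylate and reduce the sterol ring. The median log2 ratio was -0.18, with 5 intervals below 0, 2 above and 4 spanning it, and none was called. Fdft1, squalene synthase, was at 2.91 per kb in WT and 3.23 in miR-146a-/-; 18.3% of its exon length overlaps Ctsb on the opposite strand (5772 and 2454 counts). Sqle, the epoxidase that is a control point of the pathway, had 955 counts (3.69 per kb) and 254 (2.74 per kb), a log2 ratio of -0.43 (-0.64 to -0.23). Lss, which folds the epoxide into lanosterol, was at 1.54 and 1.41 per kb, and Cyp51, the lanosterol demethylase, at 4.48 and 3.97 per kb. Both of these intervals spanned 0.

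The later enzymes had ratios on both sides of 0. Ebp (chrX:8185329-8193512, - strand), the sterol isomerase, had 698 counts (6.48 per kb) and 167 (4.32 per kb), a log2 ratio of -0.58 (-0.84 to -0.34). Msmo1, the C4-methyl oxidase, was at 1.40 and 1.03 per kb, with a ratio of -0.44 (-0.77 to -0.13). Sc5d, the C5 desaturase, was at 2.72 and 2.04 per kb, with -0.41 (-0.67 to -0.17). Tm7sf2, a C14 sterol reductase, was the least abundant sterol enzyme, with 113 and 25 counts and a ratio of -0.69 (-1.38 to -0.06); 12.1% of its exon length is shared with Vps51 on the same strand. Hsd17b7, the ketoreductase, was at 1.11 and 1.02 per kb and spanned 0.

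Dhcr7, which carries out the closing reduction to cholesterol, and Nsdhl, a decarboxylating dehydrogenase, stood on the other side. Dhcr7 (chr7:143823145-143848410, + strand) had 1899 counts (7.003 per kb) and 810 (8.33 per kb), a log2 ratio of 0.25 (0.13 to 0.37), which turns negative when libraries are scaled by total counts. Nsdhl (chrX:72918557-72958514, + strand) had 831 counts (6.25 per kb) and 348 (7.29 per kb), with 0.22 (0.04 to 0.41), which turns negative in the same way. Dhcr7 took 18.4% of the summed per-kb level of the 11 enzymes in WT and 23.3% in miR-146a-/-. The ratio of Dhcr7 to Sqle was 1.90 in WT and 3.04 in miR-146a-/- (difference of log2 ratios 0.68, 0.45 to 0.92). Nsdhl and Ebp are both on the X chromosome, and they differed from each other by 0.81 (0.50 to 1.12). Over 420 measured protein-coding X genes the median was 0.02, with 8 called higher and 3 lower, where 5.35% and 1.53% of all measured genes were.

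Summed over the 18 sterol enzymes, normalised CPM were 236 in WT against 221 in the other library, with a log2 ratio of -0.10 (-0.15 to -0.04). The median over the 18 was -0.15, with 13 negative; it was -0.09 with length and GC content adjusted for, -0.10 with a filter of 200 counts and -0.26 without members that overlap other genes. The spread (SD) of log2 ratios was 0.36 among the 18, against 0.43 among 10365 protein-coding genes with at least 200 counts.

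Of the 6 genes of SREBP control and sterol transfer, 5 stood above the median level of measured genes, against 4 of 18 sterol enzymes. In WT Srebf2, Srebf1 and Scap were far above the most abundant sterol enzyme (Dhcr7, 7.003 per kb). Insig1 was just above it, and Stard4 and Insig2 were below it. Srebf2 (chr15:82147181-82205379, + strand) had 15926 counts in WT (47.6 per kb) and 6217 in miR-146a-/- (51.7 per kb), a log2 ratio of 0.12 (0.08 to 0.16) that is 0.03 with length and GC content adjusted for and turns negative under total counts. Srebf1 (chr11:60199089-60222581, - strand) had 4957 counts (18.9 per kb) and 1486 (15.8 per kb), with -0.26 (-0.34 to -0.18). Srebf2 was thus 2.52 times as abundant per kb as Srebf1 in WT and 3.28 times in miR-146a-/-, a difference of log2 ratios of 0.38 (0.29 to 0.48). Srebf1 shares 109 exon bases with Rai1 on the opposite strand.

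Scap, the escort of SREBP, was at 17.2 per kb in both libraries, with a log2 ratio of -0.0033 (-0.08 to 0.07), or -0.14 after that adjustment. Insig1, a retention protein that is itself an SREBP target, had 1215 counts (8.43 per kb) and 514 (9.94 per kb), with 0.24 (0.09 to 0.39), negative under total counts. Its relative Insig2 had 287 counts (1.77 per kb) and 80 (1.38 per kb), with -0.36 and an interval from -0.74 to just under 0. The Insig1 to Insig2 ratio was 4.75 in WT and 7.21 in miR-146a-/-, a difference of 0.60 (0.21 to 1.01). Stard4, a carrier of cholesterol between membranes, had 1706 and 488 counts (6.55 and 5.22 per kb), with -0.33 (-0.47 to -0.18).

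**Figure D3:**
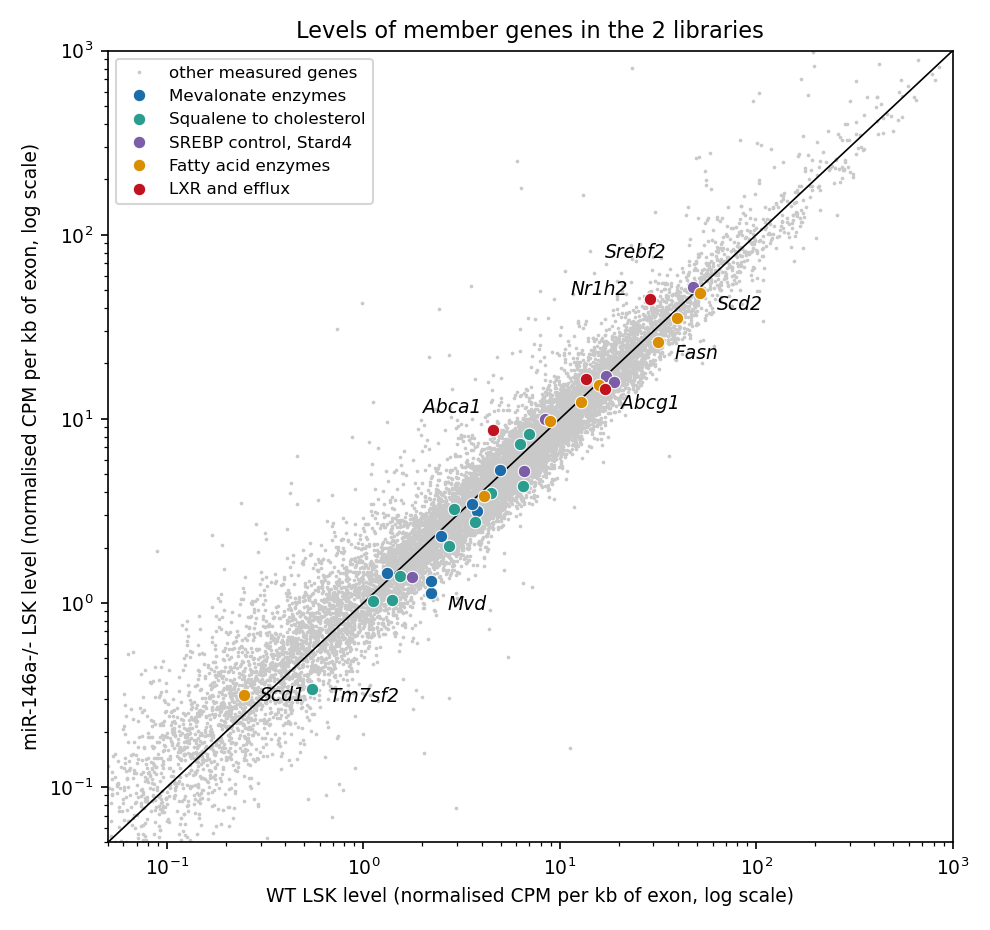
Level of each gene in the WT library (x axis) and the miR-146a-/- library (y axis), in TMM-normalised CPM per kb of exon, both on log scales; coloured points are the 36 genes by role, grey points other measured genes and the line marks equal levels. Fatty acid and SREBP control genes reach the upper end (Scd2 at 52.0 and 48.3), sterol enzymes stay below 10, and among the coloured points Abca1 and Nr1h2 lie farthest above the line on this TMM scale.

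The fatty acid enzymes covered the widest range of levels, from 0.246 to 52.0 per kb in WT. None of the 8 was called; the median log2 ratio was -0.09, with 4 intervals below 0, 1 above and 3 spanning it. Acly, which supplies cytosolic acetyl-CoA, had 9727 and 3102 counts (39.5 and 35.1 per kb), with -0.17 (-0.23 to -0.11). Acaca, the carboxylase that makes malonyl-CoA, was at 4.13 and 3.80 per kb, with -0.12 (-0.22 to -0.02), or -0.28 with length and GC content adjusted for. Fasn (chr11:120805846-120824547, - strand), the synthase, had 16082 and 4783 counts (31.5 and 26.1 per kb), with -0.27 (-0.32 to -0.22), or -0.56 after the same adjustment. On the TMM scale the 3 enzymes that lead from citrate to palmitate thus had intervals below 0, that of Acaca only just. The Acaca ratio was nearer to 0 with TMM on protein-coding genes (-0.10) and with a filter of 200 counts (-0.08). Elovl6, which lengthens palmitate, was at 8.89 and 9.73 per kb, with a ratio of 0.13 (0.02 to 0.23) that is negative under total counts.

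Of the paired stearoyl-CoA desaturases, Scd2 held nearly all the counts. Scd2 (chr19:44293674-44306864, + strand) had 13248 and 4418 counts (52.0 and 48.3 per kb), with -0.11 (-0.15 to -0.06), and was the most abundant of all 36 genes in WT. Scd1 (chr19:44394455-44407879, - strand), its close paralog, had only 56 and 26 counts (0.246 and 0.318 per kb), with 0.37 (-0.36 to 1.07). Scd2 was 212 times as abundant per kb as Scd1 in WT and 152 times in miR-146a-/-; the difference of log2 ratios, -0.47 (-1.17 to 0.25), was within counting error. Paralogs can share reads, and how such reads were counted is not given in the sources used here. Fads1 and Fads2, the desaturases of polyunsaturated fatty acids, were at 12.9 and 12.3 per kb and at 15.8 and 15.4 per kb. Their ratios of -0.07 and -0.05 differed by -0.02 (-0.18 to 0.13). Summed over the 8 genes, normalised CPM were 1081 and 974, a log2 ratio of -0.15 (-0.18 to -0.12).

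In the LXR arm 3 of 4 genes had ratios above 0 on the TMM scale (under total counts only Abca1 does), and 1 was below it. Abca1 (chr4:53030787-53159895, - strand), which loads cholesterol onto apolipoprotein A-I, had 2219 counts in WT (4.59 per kb) and 1515 in miR-146a-/- (8.74 per kb). Its log2 ratio was 0.93 (0.83 to 1.02), a 1.90-fold higher level, at percentile 93.4 of measured genes. This ratio is 0.73 once exon length and GC content are adjusted for, and 0.11 under total counts. Nr1h2 (chr7:44549616-44553951, - strand), the gene of LXR-beta, had 4492 counts (28.7 per kb) and 2505 (44.7 per kb), with 0.64 (0.57 to 0.71). Its lower bound fell just inside 1.5-fold, so it was not called, and it is called under 3 of the alternatives tried while its sign turns under total counts (-0.18).

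Mylip (chr13:45389742-45412022, + strand), the ubiquitin ligase that LXR induces to remove lipoprotein receptors, had 2043 counts (13.6 per kb) and 895 (16.6 per kb), with 0.29 (0.17 to 0.40), which is 0.44 with length and GC content adjusted for and negative under total counts. Abcg1 (chr17:31057675-31117988, + strand), which passes cholesterol to HDL and is another LXR target, had 5763 counts (16.9 per kb) and 1782 (14.6 per kb), with -0.21 (-0.29 to -0.14). The transporters thus differed in opposite directions, and the ratio of Abca1 to Abcg1 per kb was 0.271 in WT and 0.599 in miR-146a-/-, a difference of log2 ratios of 1.14 (1.02 to 1.27). Abcg1 remained the more abundant in both libraries.

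The median of the 4 LXR arm genes was 0.46 on the TMM scale and -0.36 under total counts. It exceeded that of the 18 sterol enzymes by 0.62. A change of scaling moves all genes alike and cannot alter this difference; it was 0.59 with a filter of 200 counts, 0.65 with length and GC content adjusted for and 0.72 without the members that overlap other genes. With 4 genes the median is the mean of the Mylip and Nr1h2 values.

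Genes of the same pathways outside the 36 were counted for comparison. Of 61 such genes 59 were measured. Of these 0 were called higher and 2 lower, where 5.35% and 1.53% of all measured genes were. The median log2 ratio was -0.09, with 11 intervals above 0 and 25 below (28.0% and 29.0% of all measured genes). In the isoprenoid branch, 12 genes of protein prenylation and of dolichol and ubiquinone synthesis, the median was -0.09. Fnta, an alpha subunit of prenyltransferases, was called lower, with 1144 and 214 counts and -0.94 (-1.16 to -0.73). Fntb, the farnesyltransferase beta subunit, was at 0.13 (-0.04 to 0.30). Pdss1, which makes the ubiquinone tail, was at -0.42 and Rabggta, a subunit of the Rab prenyltransferase, at 0.07. The lowest values of this branch and of the mevalonate steps were therefore Fnta, Mvd and Fdps.

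Of 10 genes that process or degrade SREBP and its partners, none was called and the median was -0.15. Erlin1 was at -0.37, Ufd1 at 0.22 and Fbxw7, which marks nuclear SREBP for degradation, at 0.08. Of 20 other fatty acid genes 1 was called lower: Hacd3, a dehydratase of fatty acid elongation, had 1286 and 267 counts and -0.79 (-0.98 to -0.60). Its relative Hacd1 was at -0.70 and was not called. Mlxip, a glucose-responsive factor, at 0.54 (0.48 to 0.61), and Acacb, the acetyl-CoA carboxylase of the mitochondrial surface, at 0.45 were the highest. The median of the 20 was -0.06.

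Among 9 genes of sterol uptake, storage and transfer none was called and the median was -0.20. Soat1, which esterifies cholesterol, was at -0.28, and Soat2 at 0.63 on 81 and 45 counts. Vldlr, a lipoprotein receptor, was at -0.49 (-0.57 to -0.41) and Lipa, the lysosomal lipase, at 0.27. Of 10 further LXR genes 8 were measured, since Pltp and Abcg4 had under 20 counts, and none was called. Their median was 0.10 (negative values were found for Rxra, -0.24, and Rxrb, -0.31, the partners of LXR), and the transporter Abca7 was at 0.36.

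**Figure D4:**
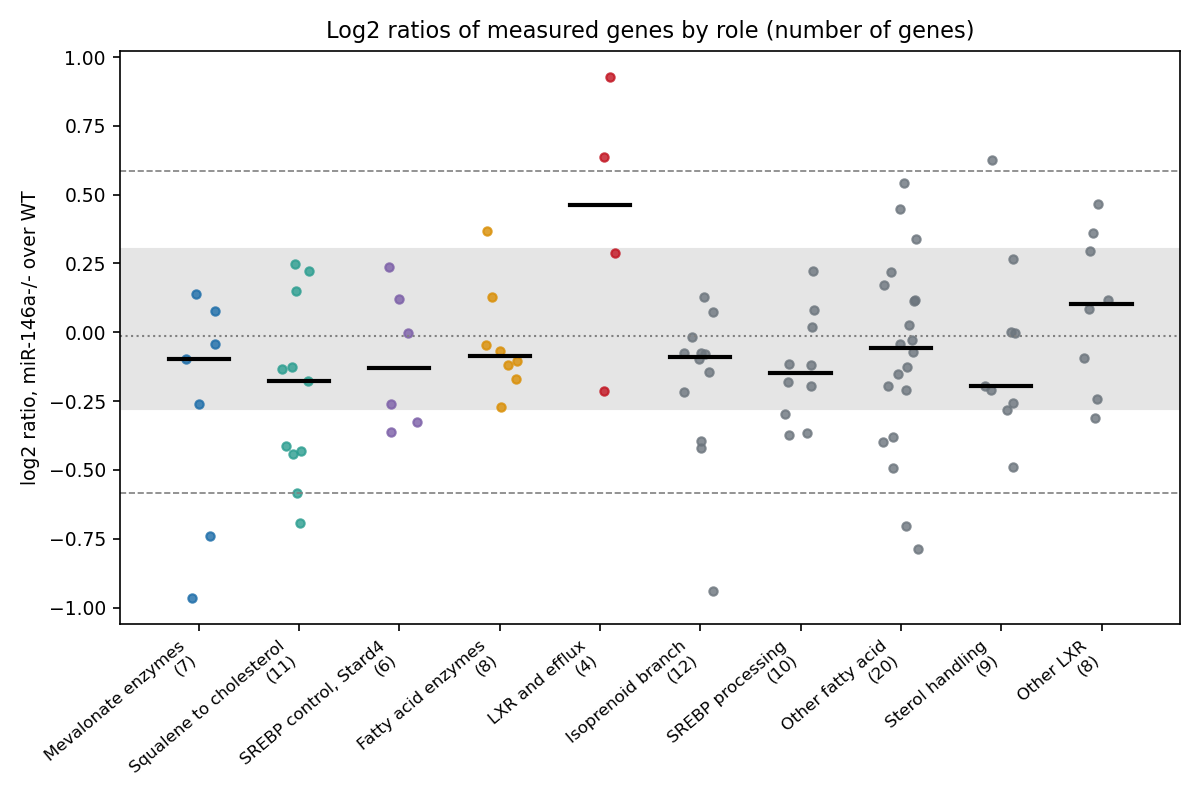
Log2 ratio of miR-146a-/- over WT on the TMM scale for every measured gene by role, with the 36 genes in colour and other genes of the pathways in grey; black bars are medians, the grey band the middle 50% of all measured genes, the dotted line their median and dashed lines 1.5-fold. Medians of synthesis and SREBP groups lie between -0.20 and -0.06 and that of the LXR arm at 0.46 (-0.36 under total counts), with Abcg1 below 0.

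Markers of other cells were read in the same libraries, where 5.35% of all measured genes were called higher and 1.53% lower. Of 10 macrophage markers 8 were measured and none was called. Intervals lay above 0 for 2, Cd68 (7.99 and 12.4 per kb) and Csf1r (1.59 and 2.61 per kb), and spanned 0 for the other 6. Among those 6, Adgre1 (17 and 4 counts) and C1qc (20 and 3 counts) had negative ratios, -0.58 and -1.19, and the rest positive ones. The list summed to 23.4 CPM in WT and 35.04 in miR-146a-/-. Marco was at 0 counts in both. Macrophages are rich in Abca1, and the part of these values in the Abca1 result was not tested. Of 7 neutrophil markers 5 were measured and 3 were called lower, with a sum of 12.4 and 5.14. S100a9 was the most abundant in both libraries, followed by Ngp in WT and by S100a8 in miR-146a-/-, and S100a8 was the 1 measured marker with a positive ratio, 0.30 (-0.56 to 1.11). B and plasma cell markers summed to 22.6 and 19.0 (Cd79b and Jchain most abundant; Pax5 at 0 in WT and Ms4a1 at 0 in miR-146a-/-), with 3 of 6 measured and 1 called lower. T and NK markers summed to 58.4 and 51.2 (Nkg7 and Lck most abundant, with Cd3e and Cd3g at 0 in both), with 4 of 6 measured. Of these 2 were called higher, Cd247 on 56 and 58 counts and Gzmb on 9 and 13. Lck had an interval below 0, at -0.57 (-0.77 to -0.37), and Nkg7 was at -0.12 with an interval that spanned 0. Erythroid markers summed to 2.38 and 2.27 (Hbb-bt most abundant, followed by Epor in WT and Klf1 in miR-146a-/-; Slc4a1 at 0 in both), with 3 of 6 measured.

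Genes of cell state were read in the same way, beside 5.35% called higher, 1.53% called lower and 29.0% with intervals below 0 over all measured genes. All 6 immediate early genes were called higher, with a median log2 ratio of 2.02 and a sum of 2342 and 9856 CPM, led by Fos and Egr1. Of 9 replication genes 1 was called lower (Mcm2, -0.67) and 7 had intervals below 0, with a median of -0.37. Mki67, the proliferation marker of the list, had an interval above 0, at 0.25 (0.21 to 0.30), negative under total counts. Pcna and Mcm3 were the most abundant in both libraries. Lipid synthesis is known to be higher in dividing cells, and the part of these values in the ratios of the synthesis enzymes was not tested. Ratios also differed by exon length. The median over protein-coding genes went from -0.17 in the shortest of 10 length classes to 0.17 in the longest. The 7 mevalonate enzymes had exon lengths from 1713 to 4594 bases while Abca1 had 10363. Members did not all follow this order: Lss (10787 bases), Fasn (10947) and Acaca (17074) had negative ratios, and Nr1h2 (3354) had 0.64.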

How the data were processed

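The authors deposited whole-number counts of reads per Ensembl gene for both libraries, with no normalisation. STAR 2.5.3a, Salmon 0.9.0 and mm10 are named in the submitters' processing notes without their roles. How reads were counted (program, annotation, strand, duplicates, shared reads) is not given in the sources used here, so reads of overlapping genes or paralogs cannot be told apart. Symbols, exon lengths and positions came from GENCODE M21; 37693 of 39017 identifiers had a name, and the rest held 0.286% of WT and 0.168% of miR-146a-/- counts. TMM scaling used edgeR 4.0.16 in R 4.3.3 over genes with at least 20 summed counts. Its quasi-likelihood test was not run, with 1 library per genotype. Log2 ratios used a prior count of 0.5 and intervals came from scipy 1.17.1 in Python 3.11.15. Contrasts between genes used the exact conditional interval of the odds ratio. The calculation was tested on simulated data, in which both libraries were drawn from the same gene shares apart from genes changed on purpose. The simulation held no shift like that of Gm42418 and no variation beyond counting. It therefore does not check the scaling against such a shift. Total counts per library limit the precision as the intervals show.

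The 36 genes and all lists were chosen with earlier results of these data known. Named genes are all 36 members, the 2 highest and 2 lowest genes of each further pathway list, the 2 most abundant per kb of each marker or state list and markers at 0. Mcm2, Mki67, Adgre1, C1qc, Cd247, Gzmb, Gm42418, Xist and genes that overlap members were named after their values were seen. Some genes that this rule takes are not reported here. Promoters and mature microRNAs came from RefSeq (GRCm38.p6); no entry was found for Abcg1, Fads1, Fdft1, Fdps, Scd1, Scd2, Sqle and Stard4, and a gene with several promoters counted once. Other settings tried were total counts, DESeq2 1.42.0 size factors, upper-quartile scaling, TMM on protein-coding genes, filters of 200 and 1 counts, a prior count of 5, a 2-fold threshold, adjustment for exon length and GC content, means for medians, and leaving out members that overlap other genes.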

Additional observations from a re-analysis of the deposited data

How the results depend on the processing

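Scaling decided most. With total counts, which shift the median of all measured genes to -0.83, 0 members were called higher and 25 lower (12 sterol and 7 fatty acid enzymes among them), and the medians were -0.97 for sterol enzymes, -0.91 for fatty acid enzymes and -0.36 for the LXR arm. Scaling moves all genes alike, so it leaves the order of genes as it was. Nr1h2 joined Abca1, giving 2 members called higher, with TMM on protein-coding genes (0.66), at a filter of 200 counts (0.67, 34 members tested) and with length and GC content adjusted for (0.68), where the LXR median was 0.56. With a 2-fold threshold 0 members were called higher. No member was called lower under any alternative other than total counts. Apart from total counts, Scap changed sign under 4 alternatives and Fads2 and Pmvk under the length and GC adjustment. The median of sterol enzymes was between -0.26 and -0.09 and that of fatty acid enzymes between -0.15 and -0.04 under the alternatives other than total counts. Calls over the 13880 measured genes were 742 higher and 212 lower, 294 and 42 at 2-fold, and 140 and 7077 with total counts. Other filters tested other genes: 740 and 322 of 20304 were called with at least 1 count and 491 and 130 of 10730 with at least 200. On 12319 protein-coding genes the calls were 538 and 178 as scaled and 556 and 111 after the adjustment. Depth limits Scd1, Tm7sf2 and Mvd most, with 26, 25 and 35 counts in miR-146a-/- cells. No paired analysis was possible because each genotype has 1 library and the labels number no replicates.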
